A study of Mus musculus with 53 samples.

Results

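The brainstem of aged wild-type mice was compared with 3 other brain regions of the same animals by RNA sequencing. The brainstem group held 8 libraries from 8 male wild-type C57BL/6 mice, chosen by the genotype and tissue in their labels. The comparison group held the 22 other wild-type libraries, from cerebellum (n = 7), cortex (n = 7) and striatum (n = 8), so 30 of the 53 libraries of the series entered the comparison. The wild-type mice were 75 (7 mice) or 77 weeks old (1), untreated, and had been through repeated motor tests. The series was made to compare these mice with 6 MJD84.2 mice, which carry the whole human ATXN3 locus, its own promoter included, with a long CAG tract, and serve as a model of spinocerebellar ataxia type 3 (SCA3). Those SCA3 mice were used here for a second measurement of the regional contrast and for a test of its difference between genotypes. They were 74 (3 mice), 75 (2) and 77 weeks old (1), and no wild-type mouse was 74 weeks old. Tissue was dissected by region and was not sorted by cell type. In such bulk samples, more cells of a type and more RNA per cell cannot be told apart.

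The brainstem joins the forebrain and cerebellum to the spinal cord. It is crossed by long myelinated fibre tracts, and it holds the motor nuclei of the cranial nerves and the monoamine cell groups that project through the brain. Fast inhibition in the brainstem and spinal cord uses glycine as well as GABA, and its excitatory neurons mostly load their vesicles through VGLUT2, whereas cortical pyramidal cells use VGLUT1. Spine-bearing neurons with dense postsynaptic scaffolds, the pyramidal cells of the cortex and the projection neurons of the striatum, make up much of the other regions.

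The 8 brainstem libraries were not alike, and these differences bear on several results below. Six3, a forebrain transcription factor, was at 14.6, 14.3 and 11.6 CPM (counts of a gene scaled to the size of its library) in the brainstem of mice 7267055, 9083373 and 9083375, and at 0 to 0.062 CPM in the other 5. These 3, called the Six3-positive libraries, were left out together as an alternative. The brainstem of mouse 9083373 also had the highest summed level of 8 cerebellar neuron markers, 507 CPM against 136 to 313 CPM in the other brainstem libraries and 4304 CPM or more in cerebellum. The brainstem of mouse 7267059 had a summed level of 11 meningeal markers of 2525 CPM, against 376 to 767 CPM in the other 7. Among the other regions, the striatal libraries of mice 7267058 and 7267059 had 105 and 119 CPM of Tcf7l2, a thalamic marker. The summed level of 12 striatal markers was 932 to 3741 CPM in cortex, 331 to 405 CPM in cerebellum and 409 to 493 CPM in brainstem. Cortical expression of these genes and striatal tissue in the cortical samples cannot be told apart. Each library contained 31680939 to 76703758 counts. The RNA integrity number (RIN) was 7.24 ± 0.424 (SD, n = 8) in brainstem and 7.7 ± 0.618 in the other 22 libraries. The difference within mice was -0.425 ± 0.496 (brainstem minus the other regions, SD, 8 mice), which did not pass an exact two-sided permutation test (p = 0.0547, adjusted over 2 quantities p = 0.109; the smallest p the design allows is 0.00781).

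Regional differences were widespread. Of 12372 genes, 4322 (34.9%) were higher in brainstem than the mean of the 3 other regions and 4555 (36.8%) were lower at a false discovery rate (FDR) below 0.05, by the edgeR quasi-likelihood test with the mouse as a block. Most of these differences were small, with a median absolute log2 fold change of 0.26 over all genes. At least a 2-fold difference was reached by 417 higher genes (3.37%) and 418 lower genes (3.38%). Because a mean of 3 regions can be set by 1 of them, each region was also tested alone. Against cerebellum 4682 genes were higher (37.8%) and 4410 lower (35.6%). Against cortex 3874 genes were higher (31.3%) and 4282 lower (34.6%), and against striatum 4071 were higher (32.9%) and 4177 lower (33.8%). A stricter set of 1823 genes (14.7%) was higher in brainstem than in each of the 3 regions, and 1760 genes (14.2%) were lower than in each. Without the Six3-positive libraries 1738 genes were higher than in each region, 1579 of them among the 1823, and 1673 were lower than in each, 1527 of them among the 1760. With RIN as a covariate 1570 genes were higher and 1539 lower than in each region. Groups without overlap were rarer: all brainstem libraries lay above all others for 328 genes (2.65%) and below all others for 423 (3.42%).

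**Figure D1:**
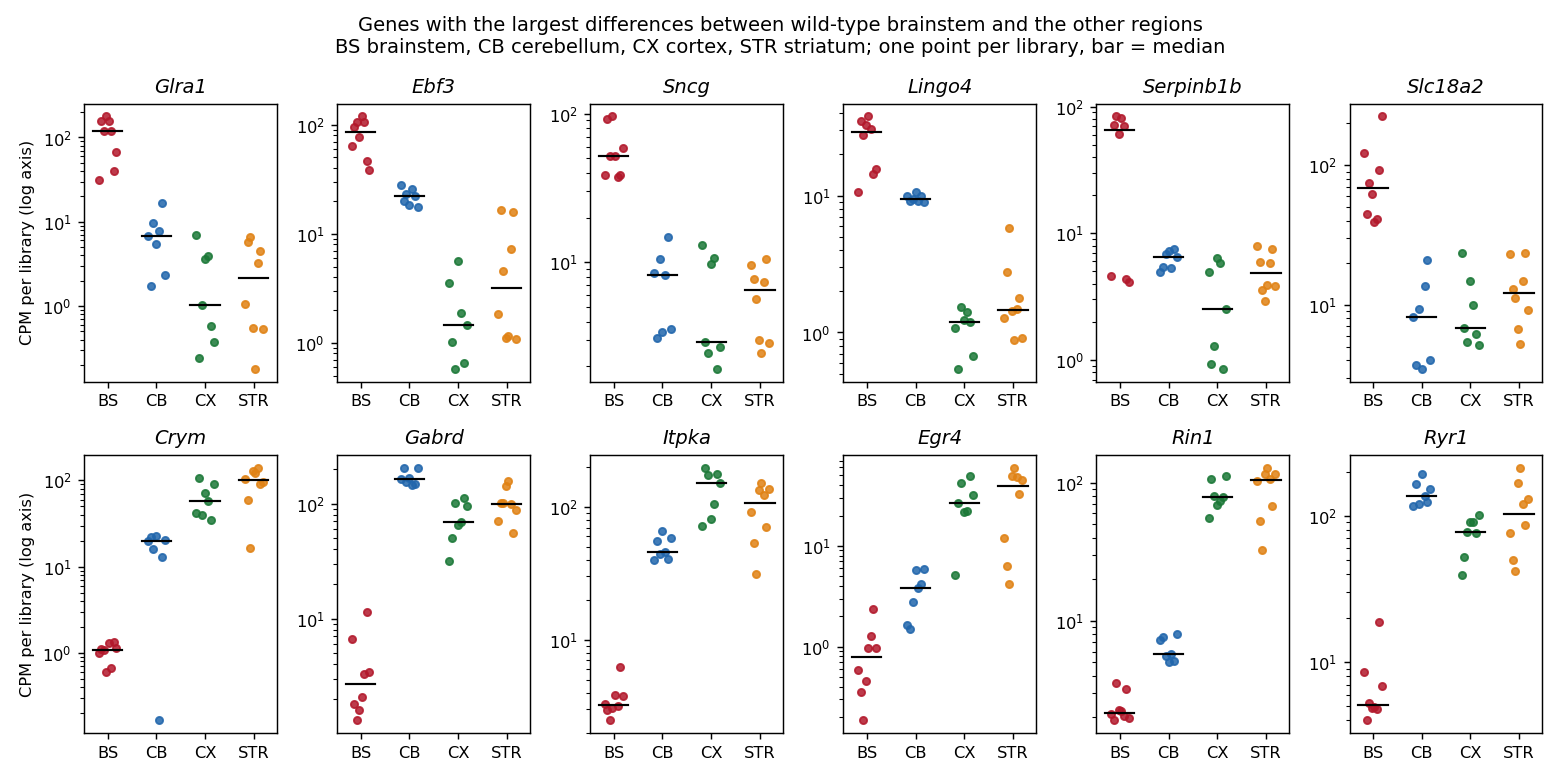
Levels in CPM (log axis) of the genes with the largest positive and negative fold changes among those above or below each region, one point per wild-type library, by region. Glra1 lay between 31.3 and 178 CPM in all 8 brainstem libraries and did not exceed 16.8 CPM elsewhere.

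The gene with the largest positive difference among those above each region was Glra1 (chr11:55514239-55608198, GRCm38.p6), which encodes the alpha1 subunit of the glycine receptor. In brainstem its level was 31.3 CPM at the lowest, 120 at the median and 178 at the highest. In the other 22 libraries it ranged from 0.18 to 16.8 CPM with a median of 3.43. All 8 brainstem libraries lay above all others, and the log2 fold change against the mean of the 3 regions was 5.03 ± 0.51 (SE; FDR 3.56e-08, edgeR). The 3 Six3-positive libraries were the lowest of the 8, at 31.3, 40.2 and 68.1 CPM. Glra1 was higher than in cerebellum by 3.96, than in cortex by 5.60 and than in striatum by 5.52 on the log2 scale.

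Other transmitter genes stood beside Glra1. Slc18a2 encodes the vesicular monoamine transporter that fills vesicles with dopamine, noradrenaline and serotonin (chr19:59260878-59296012). It ranged from 39.3 to 224 CPM in brainstem (median 68.5) and from 3.46 to 23.5 CPM elsewhere (median 9.22). Its groups did not overlap (log2 fold change 3.06 ± 0.32, FDR 5.5e-08). Ddc, the aromatic amino acid decarboxylase that makes dopamine and serotonin, was at 26.7 to 153 CPM in brainstem and 2.58 to 25.8 CPM elsewhere, again without overlap (2.52, FDR 5.49e-07). Slc17a6, which encodes VGLUT2, was even among brainstem libraries, at 268 to 407 CPM with a median of 349. Elsewhere it was uneven, from 2.89 to 314 CPM with a median of 33.1, and its 2 highest values outside brainstem, 314 and 291 CPM, were those of the striatal libraries with high Tcf7l2. Its log2 fold change was 2.56 ± 0.54 (FDR 0.000269), 3.29 without those 2 libraries, and 2.21 without the Six3-positive ones (FDR 0.0114).

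Axonal and matrix genes formed a further part of the 12 genes with the largest positive change. Nefh, the heavy neurofilament subunit of thick axons (chr11:4938754-4948064), was at 363 to 1083 CPM in brainstem (median 788) and 34.8 to 429 CPM elsewhere (median 112). The single overlap came from the striatum of mouse 7267059, the library at 429 CPM, and the log2 fold change was 2.57 ± 0.27 (FDR 5.14e-08). Sncg, gamma-synuclein, was at 37.5 to 95.8 CPM in brainstem and 1.92 to 14.7 CPM elsewhere, with no overlap (3.30). Spp1, the secreted phosphoprotein osteopontin, was at 57.5 to 265 CPM in brainstem and 3.98 to 75.9 CPM elsewhere (2.98, with overlap). Of its annotated exonic bases, 18.8% are shared with another gene model, so its unstranded counts are less certain. The other genes of the 12 were Ebf3, a transcription factor (3.65), Lingo4, a leucine-rich repeat membrane protein (3.13), Serpinb1b, a serine protease inhibitor (3.10), Cdh23, a cadherin best known from hair cells (2.72), and Klk6, an oligodendrocyte protease (2.65).

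Promoter windows from RefSeq (GRCm38.p6, 250 bases before to 50 after a gene's start) were found for 17 of the 24 genes named for the largest changes, and 2 short motifs were searched in them. The cAMP response element TGACGTCA reads the same on both strands and occurs in 1.79% of all 32851 windows. The TATA box TATAAA, searched on the gene's own strand, occurs in 8.32%. One named gene held each, and both windows are shown with the motif in capitals because Slc18a2 and Spp1 were among the genes with the largest positive change. The Slc18a2 window is chr19:59260628-59260927 and the Spp1 window chr5:104434861-104435160, both on the plus strand. The TATAAA of Spp1 lies near the upstream end of its window and not beside the start.
Slc18a2: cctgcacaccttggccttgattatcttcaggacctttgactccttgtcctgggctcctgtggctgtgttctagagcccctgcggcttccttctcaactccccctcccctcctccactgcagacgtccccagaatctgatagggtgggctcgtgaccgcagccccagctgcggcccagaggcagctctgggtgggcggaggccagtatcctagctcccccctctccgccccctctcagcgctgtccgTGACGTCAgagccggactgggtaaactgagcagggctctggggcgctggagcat
Spp1: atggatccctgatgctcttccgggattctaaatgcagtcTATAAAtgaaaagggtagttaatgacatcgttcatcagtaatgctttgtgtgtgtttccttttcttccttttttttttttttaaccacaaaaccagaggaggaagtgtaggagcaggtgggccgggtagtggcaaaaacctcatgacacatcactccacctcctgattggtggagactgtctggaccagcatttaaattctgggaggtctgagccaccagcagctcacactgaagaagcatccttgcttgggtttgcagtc
These matches are descriptions of letters, and no binding was measured.

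On the low side, Crym had the largest negative change among genes below each region. Crym encodes mu-crystallin, a thyroid hormone binding protein (chr7:120186380-120201989). It was at 0.608 to 1.35 CPM in brainstem, 34.4 to 107 CPM in cortex and 16.7 to 140 CPM in striatum. In cerebellum it was at 13.1 to 22.4 CPM in 6 libraries and at 0.166 CPM in that of mouse 9083372, which was the only library outside brainstem to overlap it (log2 fold change -5.44 ± 0.55, FDR 4.01e-08). Gabrd, the delta subunit of extrasynaptic GABA-A receptors (chr4:155384979-155398098), was at 1.30 to 11.4 CPM in brainstem with a median of 2.69, and at 31.9 to 205 CPM elsewhere with a median of 102. Its groups did not overlap (-4.85 ± 0.38, FDR 2.09e-09), and the difference was larger without the Six3-positive libraries (-5.76).

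The 12 genes with the largest negative change among those below each region also held Itpr1, Itpka and Ryr1. Itpr1, the IP3 receptor of the endoplasmic reticulum, was at 121 to 472 CPM in brainstem (median 143). It was at 516 to 1093 CPM in cortex, 535 to 1781 CPM in striatum and 2922 to 5345 CPM in cerebellum, where Purkinje cells are known for it. All brainstem libraries lay below all others, and the log2 fold change was -4.42 against cerebellum, -2.05 against cortex and -2.43 against striatum. Itpka, the kinase that phosphorylates IP3, was at 2.48 to 6.20 CPM in brainstem and at 31.1 CPM or more elsewhere (-4.58 ± 0.29, FDR 2.3e-10). Ryr1, a ryanodine receptor calcium channel, was at 4.00 to 18.8 CPM in brainstem and at 39.4 CPM or more elsewhere (-3.84). The brainstem of mouse 9083373, with the highest cerebellar marker level, was the highest of the 8 for Itpr1, Itpka and Ryr1, and still lay below every library of the other regions for each. Also among the 12 were Egr4, an immediate early transcription factor (-3.97), Rin1 (-3.88), Vipr1, a receptor for vasoactive intestinal peptide (-3.63), Ankrd33b (-3.39), Rprml (-3.05) and Atp6ap1l (-3.05).

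Gene lists were then read member by member. For lists of several genes the count of members past FDR 0.05 is given, mostly with the median log2 fold change, to be read against 34.9% higher, 36.8% lower and a median of -0.01 for all genes tested. Members without overlap are to be read against 2.65% of all genes above and 3.42% below.

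**Figure D2:**
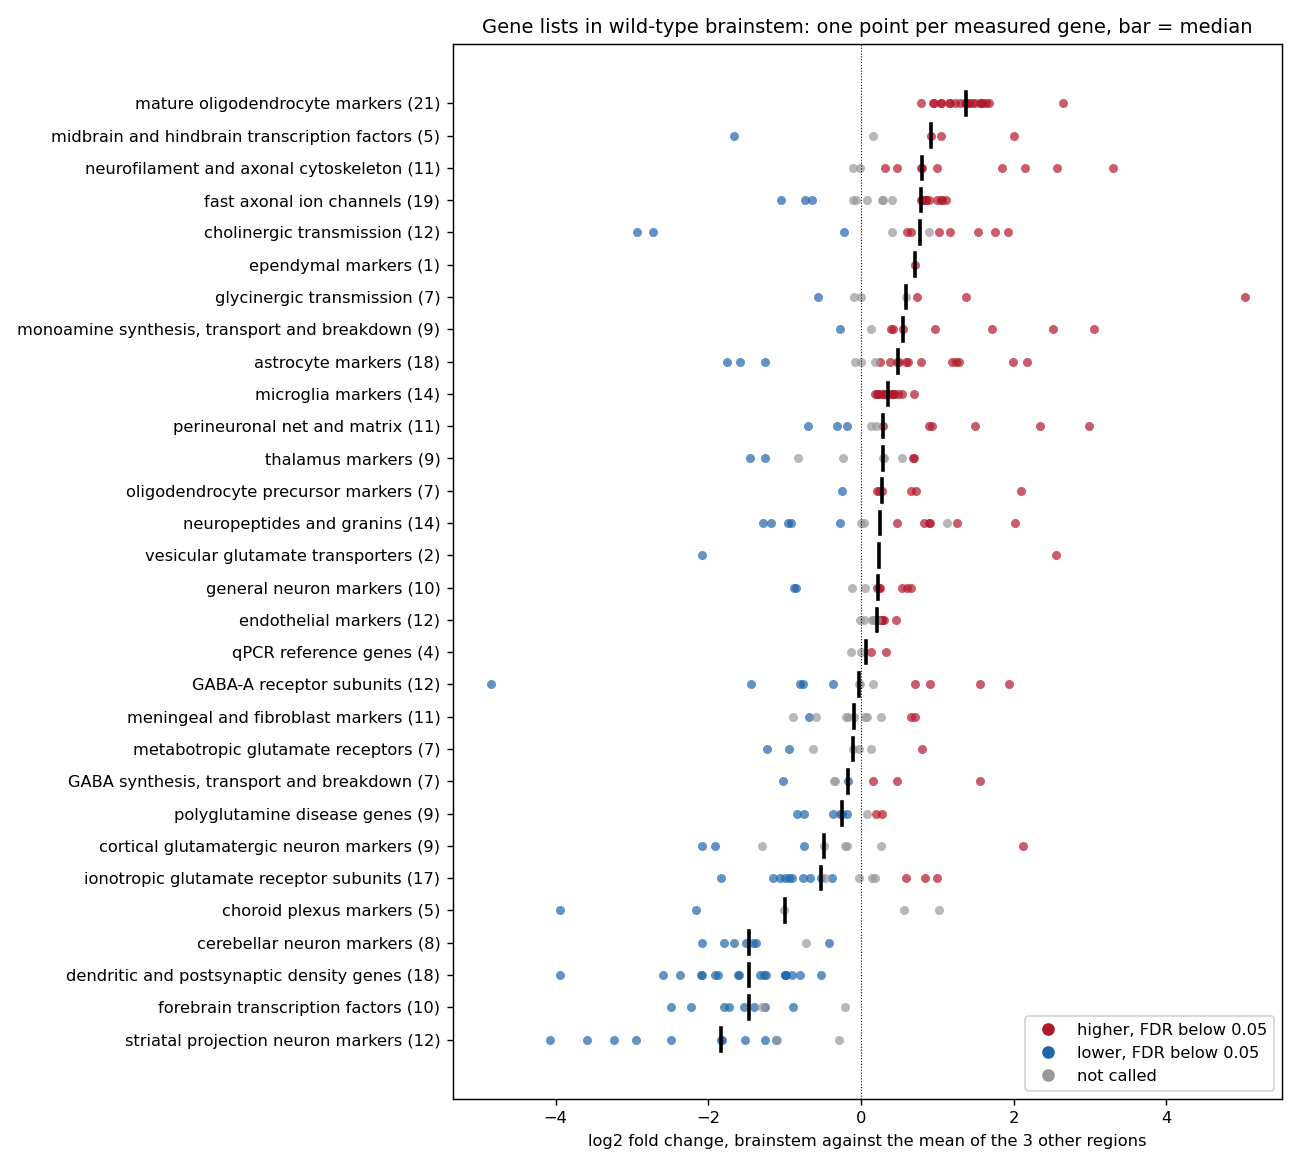
Log2 fold change of brainstem against the mean of the other regions for each measured member of the gene lists, one point per gene, with the median of each list marked. The 21 mature oligodendrocyte markers all lay above 0 and the 18 dendritic genes all lay below.

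Mature oligodendrocyte markers were higher throughout. All 21 measured members were higher than the mean of the 3 regions, with a median log2 fold change of 1.38, and 16 were higher than in each region. Each of the 21 was higher than in cerebellum and than in cortex, whereas 16 were higher than in striatum. Myelin basic protein, Mbp, was at 5074 to 10780 CPM in brainstem (median 9659) and 1227 to 8962 CPM elsewhere. It overlapped with striatum, where mice 9083371, 7267058 and 7267059 were at 5950, 6662 and 8962 CPM. The summed level of the 21 markers separated the brainstem libraries among themselves: 13538 and 12417 CPM in mice 7267055 and 9083373, and 20848 to 25414 CPM in the other 6. In striatum the sum was 7915 to 22989 CPM, in cerebellum 4240 to 6581 CPM and in cortex 3214 to 6560 CPM. Without the Six3-positive libraries the 21 members stayed past the threshold with a median of 1.46. The smallest differences in the list were those of Opalin (0.79), a myelin membrane protein that measured -0.25 against striatum, Tspan2 (0.95) and Cnp (0.96).

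Axonal cytoskeleton genes followed. Of 11 measured members 9 were higher, none was lower, and the median was 0.81, with 6 members higher than in each region. After Sncg and Nefh the largest values were those of Nefm and Nefl. Nefl was at 679 to 1621 CPM in brainstem and 186 to 556 CPM elsewhere, with no overlap (1.84, FDR 4.78e-10). Nefm was at 563 to 1654 CPM in brainstem and 132 to 607 CPM elsewhere (2.15). Map1b, a microtubule-associated protein, was higher than in each region (0.99), as was Ina, internexin, at 195 to 272 CPM and 84.8 to 231 CPM (0.81). In the GENCODE annotation 32.8% of the exonic bases of Nefl are shared with the Nefm model. Their RefSeq positions do not overlap (chr14:68083863-68089095 and chr14:68119545-68125004). The study counted reads on RefSeq genes, so the shared bases do not show that these counts are mixed. Mapt, the microtubule protein tau, measured -0.01 (FDR 0.888) and Gap43, a growth cone protein, -0.10 (FDR 0.562), so the pattern did not extend to every axonal gene. Uchl1, an abundant neuronal deubiquitinase, was higher against the mean (0.79) but measured 0.13 against cortex.

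Channels of fast-firing axons were higher in part. Of 19 measured members 10 were higher and 3 lower (median 0.79), but only 2 were above each region. Scn1a, the sodium channel Nav1.1, was at 460 to 624 CPM in brainstem and 129 to 435 CPM elsewhere, without overlap (1.07, FDR 9.57e-07). Hcn2, a pacemaker channel, was the other (0.99). Scn2a1, the sodium channel Nav1.2, moved the opposite way: it was at 149 to 266 CPM in brainstem and 223 to 590 CPM elsewhere, and lower than in each region (-1.05). Scn2b, a sodium channel beta subunit, was also lower than in each (-0.73).

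Matrix genes of perineuronal nets and nodes were higher in 6 of 11 measured members and lower in 3 (median 0.29). Acan, the aggrecan core protein of perineuronal nets, was at 15.6 to 31.8 CPM in brainstem and 2.02 to 9.52 CPM elsewhere. The groups did not overlap, and the log2 fold change was 2.34 (FDR 6.57e-09). Hapln2, a link protein of nodes of Ranvier, was also higher than in each region (1.50), as was Bcan, brevican, by a small amount (0.29). Ncan, neurocan, went different ways, at 1.90 against cerebellum and -1.50 and -1.33 against cortex and striatum.

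Dendritic and postsynaptic density genes showed the reverse of the myelin pattern. All 18 measured members were lower than the mean of the 3 regions, with a median of -1.46, and 6 were lower than in each. Here the cerebellum differed from the forebrain: 18 of 18 were lower than in cortex and 17 lower than in striatum, but against cerebellum 6 were lower and 4 higher. Baiap2, a scaffold that links receptors to actin, was at 33.2 to 77.6 CPM in brainstem (median 40.1) and 141 to 642 CPM elsewhere (median 279), without overlap (-2.60, FDR 5.14e-09). Shank3, a postsynaptic scaffold, was at 58.8 to 102 CPM in brainstem and 139 to 470 CPM elsewhere, also without overlap (-1.87). Shank2 (-1.59), Cnksr2 (-2.10) and the kinase subunit Camk2b (-0.99) were the other members whose brainstem libraries all lay below all others. Camk2a, the forebrain kinase of synaptic plasticity, was at 156 to 367 CPM in brainstem, with a median of 3491 CPM in cortex, 1800 in striatum and 138 in cerebellum, where brainstem was higher by 0.72. Ddn, dendrin, had the lowest value in the list (-3.94) and likewise measured 1.72 against cerebellum. Without the Six3-positive libraries 17 of the 18 were lower, and Arc, an activity-induced gene, measured -0.82 (FDR 0.0673).

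Glycine genes were measured in 7 members, of which 3 were higher and 1 lower (median 0.59). Besides Glra1, the beta subunit Glrb was at 314 to 426 CPM in brainstem and 171 to 278 CPM elsewhere, without overlap (0.73, FDR 3.45e-08). Slc6a9, the glial glycine transporter, was at 161 to 259 CPM and 42.5 to 160 CPM, again without overlap (1.37, FDR 3.42e-09), although 27.8% of its annotated exonic bases lie in another gene model. Gephyrin, Gphn, which anchors glycine and GABA-A receptors, measured 0.00 (FDR 0.908), and the embryonic-type subunit Glra2 measured 0.59 (FDR 0.101). The neuronal glycine transporter Slc6a5 was not analysed here.

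GABA-A receptor subunits were not one group. Of 12 measured, 4 were higher and 5 lower (median -0.02), and no subunit was higher than in each region. Gabrb2, a beta subunit, had a log2 fold change of -0.75 over all 8 brainstem libraries and -1.56 without the Six3-positive ones. Gabra5 (1.56) and Gabra3 (0.91) were higher than the mean. They were higher than in cerebellum (3.30 and 2.26) and striatum (1.03 and 0.63) and measured 0.35 and -0.17 against cortex. Of 7 genes of GABA synthesis, transport and breakdown 3 were higher and 2 lower (median -0.17). Gad1, which makes GABA, was at 184 to 593 CPM in brainstem and 341 to 914 CPM elsewhere and lower than in each region (-1.01, FDR 3.33e-06), while Slc6a11, the GABA transporter GAT3 of astrocytes, was at 596 to 1039 CPM and 68.8 to 606 CPM and higher than in each (1.56).

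Glutamate genes were read as transporters and receptors. Slc17a7, which encodes VGLUT1, was at 9.54 to 199 CPM in brainstem with a median of 63.4. Its medians were 1208 CPM in cortex, 324 in cerebellum and 65.5 in striatum, and its log2 fold change was -2.08 (FDR 0.000915) against the mean and -0.34 against striatum. Of 17 ionotropic receptor subunits 10 were lower and 3 higher (median -0.53). The AMPA receptor subunits Gria1 (-1.15) and Gria2 (-0.99) were lower than in each region, as were the kainate receptor subunits Grik2 (-1.05) and Grik3 (-0.91) and the NMDA receptor subunit Grin2c (-1.83). Higher than in each region were the NMDA receptor subunits Grin3a (1.00) and Grin2d (0.84) and the kainate receptor subunit Grik4 (0.60). Gria4, a fast AMPA receptor subunit, measured 0.78 against cortex, 0.80 against striatum and -1.14 against cerebellum. Of 7 metabotropic receptors (median -0.10) 1 was higher, Grm8 (0.80), and 2 were lower, among them Grm4 (-1.23), which measured -3.09 against cerebellum and 0.24 (FDR 0.293) against cortex.

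Acetylcholine genes were higher in 7 of 12 measured members and lower in 3 (median 0.77). Ache, acetylcholinesterase, was at 134 to 190 CPM in brainstem and 44.2 to 119 CPM elsewhere (1.17, FDR 2.37e-07). The muscarinic receptor gene Chrm2, for an autoreceptor type, was at 20.9 to 33.6 CPM and 1.75 to 15 CPM (1.93, FDR 2.15e-08). Neither overlapped with other regions. Chrm1 (-2.94) and Chrm4 (-2.72), the muscarinic receptors of cortex and striatum, were lower against the mean, but higher than in cerebellum, Chrm1 by 1.49 (FDR 0.00154) and Chrm4 by 0.54 (FDR 0.0495). Their brainstem medians were 3.16 and 2.57 CPM and their cerebellar medians 1.38 and 1.93 CPM. Chat, the enzyme that makes acetylcholine in motor neurons and striatal interneurons, was at 1.97 to 32.6 CPM in brainstem and measured 0.89 (FDR 0.175), or 1.68 (FDR 0.0303) without the Six3-positive libraries.

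Monoamine genes were higher in 7 of 9 measured members, and 5 of those were above each region (median 0.56). Th, tyrosine hydroxylase, the first enzyme of dopamine and noradrenaline synthesis, rested on few libraries. It was at 103, 23.7 and 135 CPM in the Six3-positive brainstem libraries, 6.39 to 9.91 CPM in the other 5, and 1.05 to 15.2 CPM in the other regions. Its log2 fold change of 1.72 (FDR 0.00156) fell to 0.27 (FDR 0.497) without those 3. For Ddc the value moved from 2.52 to 1.82 and remained past the threshold, and for Slc18a2 from 3.06 to 2.61. The pteridine enzymes Qdpr (0.98) and Spr (0.39), which supply the cofactor of these hydroxylases, were higher than in each region. The count of 7 higher members became 5 without the Six3-positive libraries. The transporters and hydroxylases that define single monoamines (Slc6a2, Slc6a3, Slc6a4, Dbh and Tph2) were not analysed here.

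Neuropeptides and granins were mixed, with 6 of 14 measured members higher and 5 lower (median 0.25). Adcyap1, which encodes the peptide PACAP, was at 27.9 to 45.0 CPM in brainstem and 0.497 to 32.8 CPM elsewhere, higher than in each region (2.02, FDR 1.3e-05). Chga, chromogranin A of secretory granules, was at 248 to 358 CPM and 107 to 223 CPM without overlap (0.91). Lower were Npy (-1.29), Cck (-1.18), Penk (-0.92) and Pdyn (-0.95), peptides of cortical and striatal neurons, although Pdyn measured 3.35 against cerebellum. Without the Six3-positive libraries Penk measured -0.39 (FDR 0.156) and Pdyn -0.36 (FDR 0.466). Cartpt was called higher (1.26, FDR 0.0313) but rested on the brainstem of mouse 7267055, at 83.3 CPM against a median of 7.09, and measured 0.66 (FDR 0.384) without the 3 libraries.

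**Figure D3:**
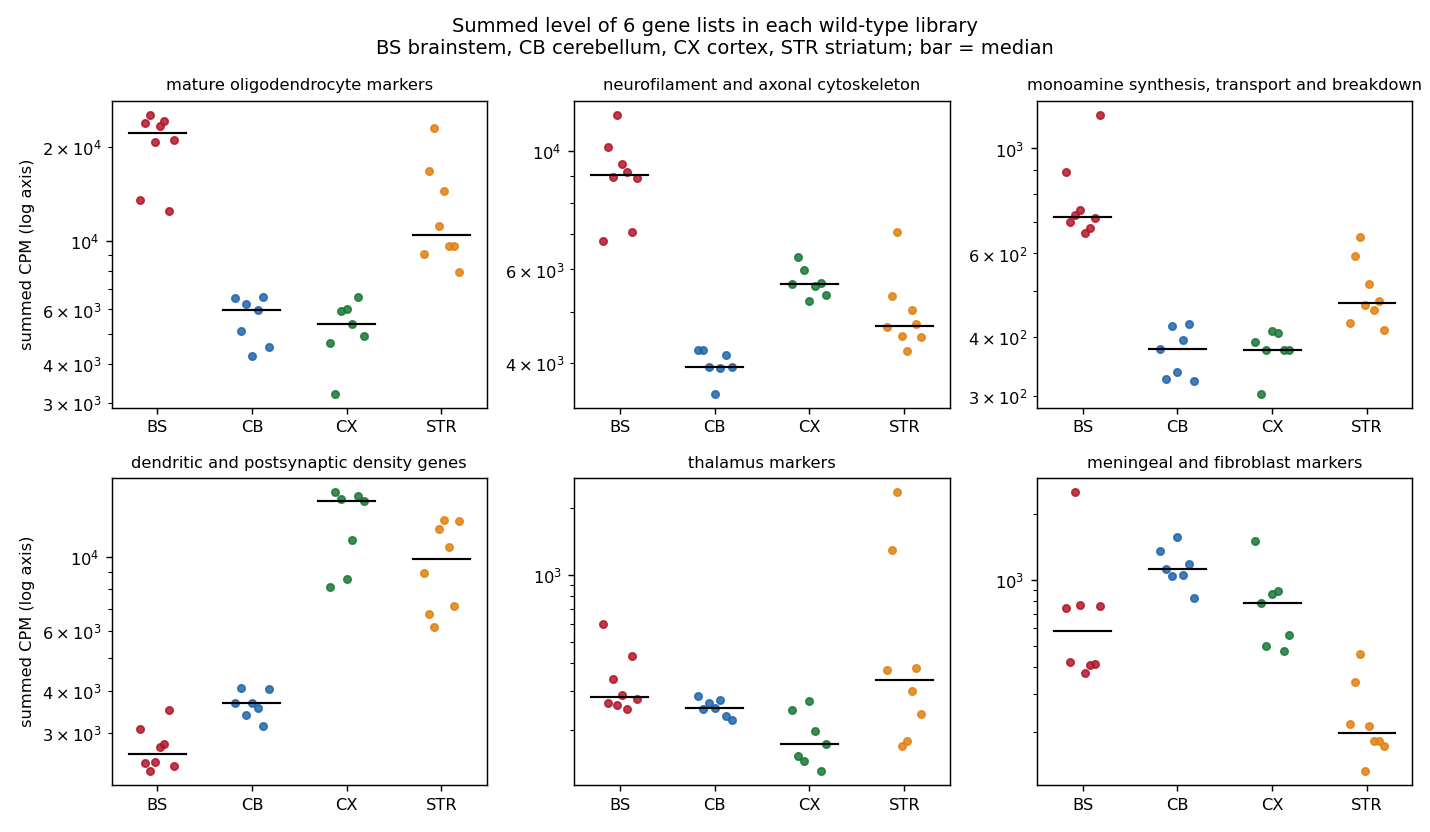
Summed level of 6 gene lists in each wild-type library (CPM, log axis), one point per library, by region, with bars at the medians. The oligodendrocyte sum was 12417 to 25414 CPM in brainstem, and 1 brainstem library, that of mouse 7267059, had a meningeal sum of 2525 CPM.

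Astrocyte markers were higher in 12 of 18 members and lower in 3 (median 0.49), but again unevenly between regions. Gfap, the intermediate filament of fibrous astrocytes, was at 280 to 2177 CPM in brainstem (median 997) and 121 to 735 CPM elsewhere (median 180). It was higher than in each region, with nearly equal differences of 2.12, 2.19 and 2.21 against cerebellum, cortex and striatum. Agt, angiotensinogen, was at 126 to 199 CPM and 3.41 to 98.7 CPM, without overlap (2.00, FDR 0.00013). Aqp4, the water channel of astrocyte endfeet, was higher than in cortex (1.71) and striatum (1.75) and measured 0.29 against cerebellum. The glutamate transporters differed: Slc1a3 (GLAST) was at 208 to 360 CPM in brainstem and 482 to 1492 CPM elsewhere, below every other library (-1.58, FDR 9.49e-10), whereas Slc1a2 (GLT-1) measured 0.18 (FDR 0.0856).

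Microglia markers depended on the region compared. All 14 members were higher than that mean, with a median of 0.35. Against cerebellum all 14 were higher, against cortex 5 were higher and 3 lower, and against striatum 1 was higher and 5 lower. When cerebellum was left out of the mean, 3 were higher and 4 lower, with a median of -0.05. Ctss, a lysosomal protease, was the single member above each region (0.69), at 76.4 to 184 CPM in brainstem and 52.1 to 155 CPM elsewhere. P2ry12, a purine receptor of resting microglia, had medians of 31.8 CPM in brainstem, 34.5 in cortex, 40.0 in striatum and 12.9 in cerebellum. Oligodendrocyte precursor markers behaved alike, with 6 of 7 higher and 1 lower against the mean (median 0.28) and 3 higher and 2 lower without cerebellum. C1ql1, a secreted C1q-like protein, was the member above each region, at 11.8 to 79.1 CPM in brainstem and 2.19 to 14.5 CPM elsewhere (2.10).

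Of 12 endothelial markers 7 were higher and none lower, with a median of 0.22 and a largest value of 0.46 for the glucose transporter Slc2a1, and 4 were higher without the Six3-positive libraries. Of 11 meningeal markers 2 were higher and 1 lower (median -0.10). Of 5 measured choroid plexus markers (median -1.0) 2 were lower, Ttr (-3.95) and Clic6 (-2.16), and Ttr reached 1999 CPM in the other regions. Foxj1, the only ependymal marker measured, was higher (0.71) but measured -0.23 against striatum. Of 10 general neuron markers 6 were higher and 2 lower (median 0.22), and the 2 lower, Rbfox3 (-0.88), which encodes NeuN, and Syt1 (-0.86), a synaptic calcium sensor, stood beside Snap25 (0.54) and Elavl4 (0.65) among the higher ones. The 4 reference genes of the study's qPCR measured 0.33 (Hprt, higher than in each region), 0.13 (Rpl22), 0.00 (Vcl) and -0.13 (Actb, FDR 0.0952).

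Markers of the other regions were used to check the brainstem label. Striatal projection neuron markers were lower in 10 of 12 members (median -1.83), with 12 lower than in striatum and 8 higher than in cerebellum, and Ppp1r1b, the phosphoprotein DARPP-32, was at 22.7 to 34.8 CPM in brainstem and 68.7 to 1255 CPM elsewhere, with no overlap. Their summed level was 409 to 493 CPM in brainstem and 331 to 405 CPM in cerebellum. Cerebellar neuron markers were lower in 7 of 8 members (median -1.46). All 8 were lower than in cerebellum, whereas 3 were higher and 1 lower than in cortex, and 4 higher and 2 lower than in striatum. Cbln3, a granule cell gene, was at 1.99 to 38.1 CPM in brainstem with a cerebellar median of 1265 CPM. Forebrain transcription factors were lower in 8 of 10 measured members and higher in none (median -1.47), including Mef2c, which was lower than in each region (-2.23), and Bcl11b (-1.53). Against cerebellum 2 were higher and 2 lower, and Bcl11b was higher by 2.04. Of 9 cortical glutamatergic markers 3 were lower and 1 was higher than the mean (median -0.49), while 6 were lower than in cortex itself. The one above the mean was Lamp5, a membrane protein, at 19.3 to 246 CPM in brainstem (2.12), which measured 0.45 (FDR 0.413) against cortex.

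Positive markers of hindbrain identity were scarcer in the table. None of 22 Hox genes and 5 of 34 listed midbrain and hindbrain transcription factors were analysed here. Of these 5, 3 were higher and 1 lower than the mean of the 3 regions (median 0.92). Against cerebellum 2 were higher and 3 lower. Their summed level was 91.5, 78.7 and 57.2 CPM in the Six3-positive brainstem libraries and 23.4 to 31.7 CPM in the other 5. The sum was not highest in brainstem: it was 177 to 301 CPM in cerebellum, 20.8 to 79.7 CPM in cortex and 11 to 28.3 CPM in striatum. Without the Six3-positive libraries 3 members were higher and 2 lower than the mean (median 0.76). Gata2 (1.05), at 4.38 to 10.1 CPM in brainstem, and Nkx2-2 (0.92) were higher than in each region. Tfap2b, at 3.23 to 49.7 CPM in brainstem with a median of 6.44, was higher than the mean (2.01; 1.26 without the Six3-positive libraries) and measured -2.60 against cerebellum. Nr4a2 was lower than the mean (-1.66; -2.71 without them). En2 measured 0.17 (FDR 0.613) over all libraries and was lower without the Six3-positive ones (-0.88, FDR 0.000165). Of 9 thalamus markers 2 were higher and 2 lower (median 0.29), but without the Six3-positive libraries none was higher, 5 were lower and the median was -0.99.

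Polyglutamine disease genes, whose human versions carry the CAG expansions of the ataxias and Huntington disease, were lower in 6 of 9 members and higher in 2 (median -0.25). For Atn1, a member, 84.2% of the annotated exonic bases are shared with another gene model, so its counts are less certain. Atxn3, the mouse gene of the SCA3 protein, was at 40.4 to 48.2 CPM in brainstem (median 43.1), 29.6 to 38.5 CPM in cerebellum, 40.7 to 47.1 CPM in cortex and 40.1 to 53.7 CPM in striatum. Brainstem was higher than cerebellum by 0.33 and measured -0.02 and -0.09 against cortex and striatum. Against the mean of the 3 its difference of 0.07 did not pass the threshold (FDR 0.137). In the SCA3 mice Atxn3 had the opposite sign and was called lower in brainstem (-0.12 ± 0.05, SE, FDR 0.0209). The lowest member was Atxn1 at 54.7 to 78.6 CPM in brainstem and 67.3 to 203 CPM elsewhere (-0.84), and it measured -0.20 against cerebellum. Cacna1a, the calcium channel gene of SCA6, was lower than in cerebellum by 1.80 on the log2 scale and measured 0.00 against striatum.

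**Figure D4:**
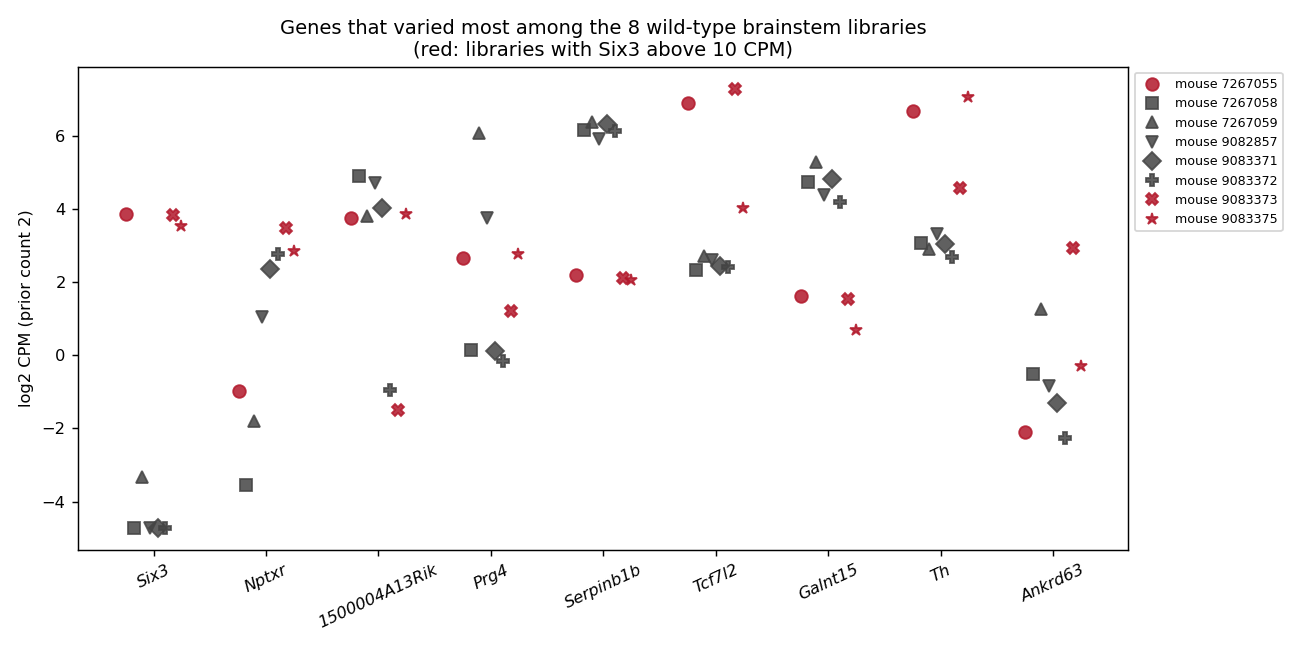
Levels (log2 CPM) of 9 of the 10 genes with the largest spread among the 8 wild-type brainstem libraries, one symbol per mouse, with the Six3-positive libraries in red. For Six3, Th and Tcf7l2 the 3 Six3-positive libraries lay above the other 5, and for Serpinb1b and Galnt15 they lay below.

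The spread among brainstem libraries was small for most genes, with a median SD of 0.136 on the log2 CPM scale, against 0.13 in cerebellum, 0.173 in cortex and 0.19 in striatum. Among the genes with the largest spread were Six3, Nptxr, 1500004A13Rik, Prg4, Serpinb1b, Tcf7l2, Galnt15, Th and Ankrd63. Several of them divided the mice in the same way. Serpinb1b was at 4.57, 4.34 and 4.12 CPM in the Six3-positive libraries and 60.5 to 83.9 CPM in the other 5, so its difference against other regions was 3.10 over all and 4.08 without them. Galnt15, a glycosyltransferase gene, was at 3.05, 2.89 and 1.58 CPM against 18.2 to 39.3 CPM. Tcf7l2, a transcription factor of thalamus and midbrain, was at 121, 157 and 16.2 CPM against 4.97 to 6.60 CPM, and its log2 fold change moved from 0.30 (FDR 0.741) to -2.03 (FDR 0.0196). Prg4, a lubricating proteoglycan, was instead highest, at 67.3 CPM, in the brainstem of mouse 7267059, the library with the highest meningeal sum.

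The regional contrast was measured a second time in the 23 libraries of the 6 SCA3 mice. There 4370 genes were higher in brainstem than the mean of the other regions (35.3%) and 4634 were lower (37.5%). Of genes higher in wild-type mice, 3721 were also higher in SCA3 mice, which is 86.1% of the wild-type and 85.1% of the SCA3 list. For lower genes the shared number was 3931, 86.3% and 84.8% of the lists, and 9 genes higher in wild-type mice were lower in SCA3 mice, with 4 the other way round. Glra1 measured 5.03 in both, Slc18a2 3.06 and 2.92, Nefh 2.57 and 2.68, Gabrd -4.85 and -4.77, and Itpka -4.58 and -4.71. The values lay further apart for Slc17a6 (2.56 and 3.83), Sncg (3.30 and 3.93) and Ebf3 (3.65 and 4.19), and the test of the difference between genotypes gave FDR 0.459, 0.598 and 0.684. The list medians in wild-type and SCA3 mice were 1.38 and 1.23 for mature oligodendrocyte markers and -1.46 and -1.43 for dendritic genes, but 0.29 and 0.91 for thalamus markers, 0.49 and 0.21 for astrocyte markers, -0.02 and -0.32 for GABA-A receptor subunits and -1.83 and -2.31 for striatal markers. Of the 14 microglia markers 8 were higher in SCA3 brainstem. The SCA3 brainstem was also divided, since Six3 was at 17.8, 24.0 and 23.3 CPM in 3 of its 6 libraries and at no more than 0.0271 CPM in the other 3. In the 3 libraries with Six3, Serpinb1b was at 4.02, 2.93 and 3.99 CPM against 49.6 to 69.0 in the others and Tcf7l2 at 92.3, 141 and 161 CPM against 6.28 to 8.10. Without these 3 libraries 3702 genes were higher and 4036 lower in SCA3 brainstem.

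**Figure D5:**
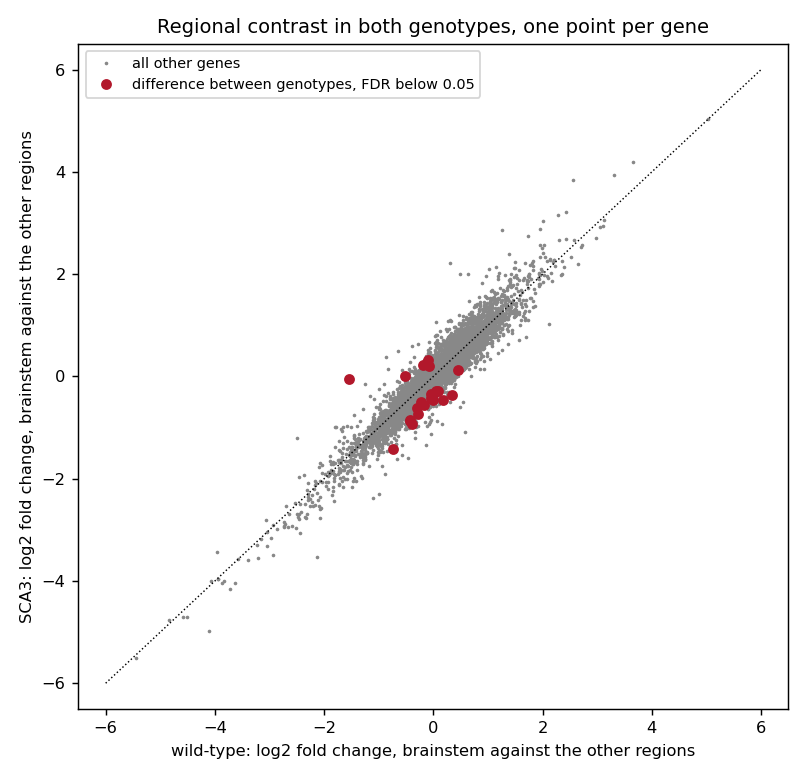
Log2 fold change of brainstem against the mean of the other regions in wild-type mice (horizontal) and SCA3 mice (vertical), one grey point per gene, with the dotted line at equality. The 22 genes whose contrast differed between genotypes are drawn larger, in red.

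Direct tests of the difference between genotypes, in one fit over all 53 libraries, called 22 genes (0.178%). Brainstem RIN was not alike in the genotypes. In wild-type brainstem it was 6.3 to 7.6, with a mean of 7.24 against 7.7 in the other wild-type libraries. Most SCA3 brainstem libraries had a RIN above 7.6. The part of RIN in the genotype difference was not tested. The count of 22 became 0 without the 6 Six3-positive brainstem libraries of both genotypes (edgeR). There the likelihood ratio test called 1, and 502 genes had an unadjusted edgeR p below 0.05. That fit held fewer brainstem libraries, so it cannot tell a lost difference from lost power. Leaving out single mice gave 170 genes without wild-type mouse 7267055 and 84 without SCA3 mouse 9082853, but 8 and 9 without wild-type mice 9083371 and 9083373, 12 without SCA3 mouse 9083513, and 2 without each of the SCA3 mice 7267054, 7267056, 9083514 and 9083515. The 5 genes with the smallest p were Myo9a, an unconventional myosin, Ppl, the plakin periplakin, Ttyh1, a chloride channel family gene, Prex2, a Rac exchange factor, and Samd12. For Ppl, brainstem was lower than the mean of the other regions in wild-type mice (-1.55) and measured -0.06 in SCA3 mice, a difference of 1.50 (FDR 0.0133). Without the Six3-positive libraries this difference was 0.72 (FDR 0.987), and for Myo9a, which measured -0.44 over all libraries, it was -0.41 (FDR 0.488).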

How the data were processed

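RNA from dissected brain regions was prepared with poly-A selection and without strand information, and sequenced in paired reads. Per the submitters' processing notes the tools were bcl2fastq 1.8, FastQC 0.11.2, cutadapt 1.10, STAR 2.3.0e, HTSeq 0.6.1 and edgeR 3.14.0, with the GRCm38 (mm10) build. The authors deposited 1 table of raw counts per gene for the 53 libraries, limited to 12372 genes with a mean of at least 4 CPM (the lowest mean in the table was 4.07 CPM). Every column matched a sample label and 0 were left out. Genes outside that table were not analysed here.

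Counts were fitted with edgeR 4.0.16 (TMM, glmQLFit and glmQLFTest; R 4.3.3) over the 30 wild-type libraries, with region and mouse as terms, and p-values were adjusted over all genes by Benjamini-Hochberg. Brainstem was contrasted with the mean of the 3 region coefficients and with each region. CPM values used TMM-scaled library sizes, and log2 CPM a prior count of 2. Libraries with the same mouse number came from the same animal, so that the mouse was a block. Same-mouse libraries of different regions deviated together, with a mean correlation of 0.107 to 0.204 over pairs of regions. No libraries were duplicates (lowest chi-square per degree of freedom 14). Totals did not differ detectably between brainstem and the other regions of a mouse (-2.07 M counts, SD 15, 8 mice, exact two-sided permutation p = 0.766, adjusted over 2 quantities p = 0.766).

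Named genes were the 12 with the largest positive and 12 with the largest negative change among those above or below each region, listed pathway members and markers, Atxn3, the 10 with the largest SD among brainstem libraries, and the 5 with the smallest p for the genotype difference. Some genes that this rule covers are not reported here. The comparison, lists and tests were chosen with earlier results of these data known. Alternatives were limma-voom (limma 3.58.1), DESeq2 1.42.0, a likelihood ratio test, other scaling factors, count and RIN filters, RIN as a covariate, no mouse block, other averages of the regions and leaving out each mouse. The fits without the Six3-positive libraries or the 2 striatal libraries, against cortex and striatum or cerebellum and striatum alone, and with single mice left out of the SCA3, genotype, RIN and total values were chosen after seeing the data. On simulated counts for the main contrast over 12372 genes, 95.2% of genes changed by 1 on the log2 scale were recovered, with 10 false calls where 200 genes had been changed. Those counts held no mouse effect and no regional difference outside the 200 genes. The real libraries held both, so error rates in that setting were not tested. Positions are from RefSeq on GRCm38.p6.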

Additional observations from a re-analysis of the deposited data

Results flagged for a closer look

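Some libraries stood apart from the rest of their group, by the gap to the nearest library relative to the range of the 8 (critical value 0.526), which chance exceeds in about 1 in 20 groups. Slc18a2, the vesicular monoamine transporter, was at 224 CPM in the brainstem of mouse 9083375 and at 123 CPM in the next highest brainstem library. The same library had the highest brainstem level of Th, 135 CPM. The brainstem of mouse 9083373 stood apart for 4 genes that were lower in brainstem than in each region: Itpr1 at 472 CPM (next 251), Ryr1 at 18.8 CPM (next 8.58), Itpka at 6.20 CPM (next 3.82) and Atp6ap1l at 3.35 CPM (next 1.49). Its cerebellar marker sum was also the highest of the 8, at 507 CPM, and the part of this in these values was not tested. The brainstem RIN of mouse 7267059, 6.3, lay below the next lowest of 7.1.

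The regional contrast differed between genotypes (SCA3 minus wild-type, log2, edgeR interaction test) for Myo9a (-0.44), Ppl (1.50), Ttyh1 (-0.34), Prex2 (-0.52) and Samd12 (-0.68). None of these 5 passed the threshold without the 6 Six3-positive brainstem libraries, where the values were -0.41, 0.72, -0.45, -0.44 and -0.55 with FDR between 0.144 and 0.987.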

How the results depend on the processing

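Counts of genes higher or lower in wild-type brainstem stayed within 1.5 times of the reported ones under every alternative run, except that 640 genes in place of 418 were at least 2-fold lower against cortex and striatum alone, 331 of them shared. Without the mouse as a replicate block, 4113 genes were higher and 4379 lower than the mean of the 3 regions, and the block changed no call of Atxn3 or of the 24 genes with the largest changes. Leaving out single mice gave 4047 to 4296 higher and 4293 to 4491 lower genes. None of those 24 genes reversed or lost its call under these alternatives. They had been picked from the same libraries for their large changes, so this outcome was likely beforehand. Atxn3 passed the threshold with upper quartile scaling (0.13, FDR 0.0181), against cerebellum and cortex (0.16, FDR 0.00617) and against cerebellum and striatum (0.12, FDR 0.0277; edgeR). Upper quartile scaling moved the median of all genes from -0.01 to 0.04 and the calls from 4322 higher and 4555 lower to 4899 higher and 3927 lower (55.5% higher in place of 48.7%). The 22 genes that differed between genotypes became 3 without the replicate block, 61 by the likelihood ratio test, 0 without the 6 Six3-positive libraries, and 2 to 170 with single mice left out. The RIN difference ranged from -0.521 to -0.321 with single mice left out, and had an exact permutation p of 0.0469, not adjusted over the 2 quantities, without mouse 7267055 (-0.49) or 7267058 (-0.521). The causes of these changes were not tested.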
